A study of Mus musculus with 110 samples.

Results

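RNA pulled down with ribosomes labelled as neuronal was compared with the RNA of the whole tissue in control mice of the hSyn set. The 10 libraries were chosen by their labels alone, as 5 immunoprecipitates (IP) and 5 Inputs of the hSyn set under the condition ND, out of 110 libraries in the series. ND stands for NCAR mice that received the Delta vector, the control for the zinc-finger protein (ZFP) vector, both carried by adeno-associated virus (AAV). The labels give neurons as the cell type of the set, name the R6/2 line as the strain of every sample, and describe an HA-based RiboTag pulldown. They do not spell out NCAR or hSyn, nor do they state the tissue, the age, the promoter of the tag, or whether a library is 1 animal or a pool. P-values therefore measure the spread between these samples, which may be technical. For comparison, the 22 other hSyn libraries are used, with 4 NZ (NCAR with ZFP), 3 RD (R6/2 with Delta) and 4 RZ (R6/2 with ZFP) libraries per fraction. ND libraries of 2 further sets are used too, each with 4 IPs and 4 Inputs. In the n_ZFP_n_Rpl set the labelled cell type is neurons, and in the n_ZFP_a_Rpl set it is astrocytes.

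In the RiboTag method, a ribosomal protein carrying an HA tag is expressed in chosen cells, and antibodies to the tag pull down ribosomes together with the messenger RNA they hold. The IP is therefore meant to report RNA engaged with the ribosomes of those cells. The Input holds RNA from every cell of the tissue, nuclear RNA included. How pure the IP was here was not tested, and several astrocyte markers stood near their tissue level in the IP, as given below. Striatal projection neurons, the cells most affected in Huntington's disease, are known for Ppp1r1b (DARPP-32) and, in the indirect pathway, for the enkephalin precursor gene Penk.

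Total assigned counts ran from 44862158 to 55523356 in the IPs and from 33008210 to 43285932 in the Inputs, without overlap. Between 16804 and 17157 genes had a read in an IP and between 17580 and 17879 in an Input, and the share of Rn45s, the ribosomal RNA precursor, was 0.00656% to 0.0108% in the IPs and 0.011% to 0.0149% in the Inputs. The part of these differences in the results was not tested. Correlations of log2 levels over 11148 genes were 0.985 to 0.992 within each fraction and 0.911 to 0.95 between them. The first principal component held 80.2% of the variance. Levels are given in counts-per-million (CPM) after TMM scaling, and the 5 values of a fraction follow the order of the labels, replicates 0, 2, 3, 4 and 5 for the Input and 0, 1, 2, 3 and 4 for the IP. Fold changes are log2 of IP over Input with their standard error (SE), and a gene is called higher or lower at a Benjamini-Hochberg adjusted p under 0.05 in edgeR's quasi-likelihood test over 15200 genes.

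Both genes that mark projection neurons were higher in the IP. Ppp1r1b, which encodes the dopamine-regulated phosphatase inhibitor DARPP-32, stood at 1074, 1233, 1296, 1245 and 1151 CPM in the Input and at 1838, 2003, 2002, 1978 and 1813 CPM in the IP. Penk stood at 1528, 1847, 1603, 1721 and 1568 CPM in the Input and at 2626, 2931, 2400, 2900 and 2487 CPM in the IP. Every IP library was above every Input library for each of them, as was the case for 23.2% of all genes tested. For 26% of genes every IP library was below every Input library. The differences were 0.68 ± 0.06 for Ppp1r1b (1.61-fold, adjusted p = 7.83e-07) and 0.69 ± 0.07 for Penk (1.61-fold, adjusted p = 3.74e-06). Rpl22, a ribosomal protein gene, stood at 1370, 1602, 1254, 1274 and 1379 CPM in the Input and at 2073, 2359, 1964, 2568 and 2167 CPM in the IP, a difference of 0.69 ± 0.08 with no overlap. The labels do not say which ribosomal protein carried the tag, so reads of a tagged Rpl22, if there was one, cannot be told from those of the mouse gene. Mouse Htt, the huntingtin gene, stood at 195 to 228 CPM in the Input and 315 to 334 CPM in the IP (0.59 ± 0.05), again without overlap.

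Across all genes the pattern was lopsided in size rather than in number. Of the 15200 genes tested, 4649 were higher in the IP (30.6%) and 4949 lower (32.6%), while 5602 were not called. At more than 2-fold, by edgeR's test against a minimum log2 change of 1, 10 genes were higher (0.0658%) and 1267 lower (8.34%). The split depends on the scaling. With library size in place of TMM the median of all genes moved by -0.17, from -0.01 to -0.18, and 16.2% of genes were called higher and 43.6% lower. The changes of neuronal lists given next lie above both medians.

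**Figure D1:**
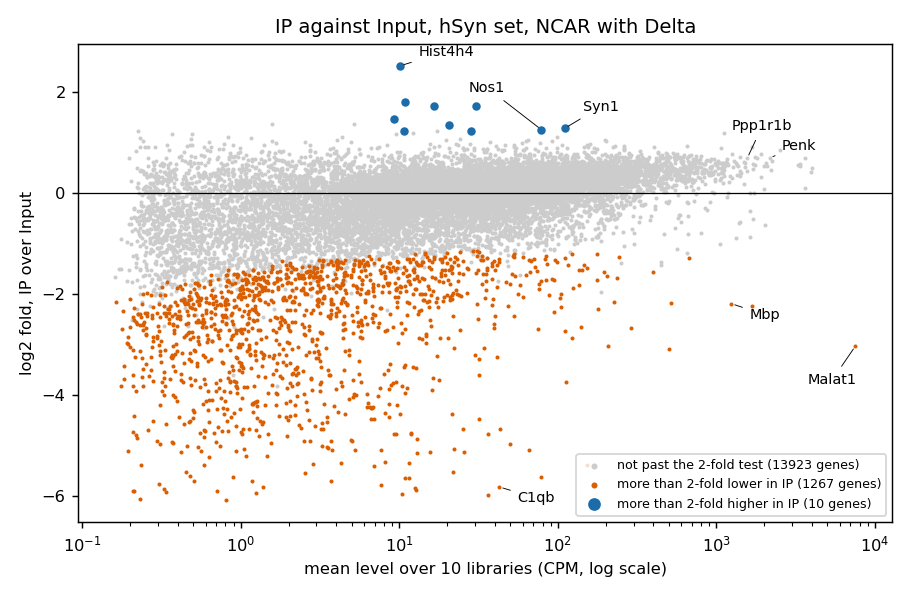
Each point is a gene, with its mean level over the 10 libraries on a log axis and its log2 fold of IP over Input. The 10 genes more than 2-fold higher in the IP lie between 1.23 and 2.52, and the 1267 lower ones reach below -5.

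The highest genes fell into a histone group and a neuronal group. Of the 10 genes more than 2-fold higher, 7 were replication-dependent histone genes, led by Hist4h4 (2.52 ± 0.23), Hist1h4f (1.80 ± 0.11), Hist1h4h (1.72 ± 0.11) and Hist2h2bb (1.72 ± 0.11), followed by Hist2h4, Hist1h4c and Hist1h4i. Hist4h4 stood at 2.83, 3.74, 4.31, 2.03 and 2.16 CPM in the Input and at 17.9, 23.6, 16.9, 12.4 and 15.6 CPM in the IP. Histone H4 genes encode near-identical proteins and share long stretches of sequence, so the counts of single members are uncertain. Such messages end in a stem-loop in place of a poly(A) tail, and the labels do not state how messenger RNA was selected. Over the whole group, 52 of 68 genes passed the filter on low counts, of which 27 were higher and 5 lower, with a median of 0.43. Among the lower ones was Hist2h2be, an H2B gene (-1.93 ± 0.27).

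The other 3 were neuronal genes. Syn1, the synaptic vesicle phosphoprotein synapsin I, stood at 56.5, 72.8, 62, 74.8 and 57.3 CPM in the Input and at 147, 178, 155, 148 and 157 CPM in the IP (1.28 ± 0.09, 2.43-fold). Nos1, the neuronal nitric oxide synthase of a class of striatal interneurons, stood at 50.8, 48.3, 37.6, 52.2 and 43.8 CPM in the Input and at 114, 117, 94.1, 114 and 115 CPM in the IP (1.25 ± 0.09). Tacr1, the substance P receptor found on striatal interneurons, stood at 15 to 19.8 CPM in the Input and 36.8 to 42.1 CPM in the IP (1.23 ± 0.08). For each of them the lowest IP library was above the highest Input library.

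The lists of neuronal markers were higher, mostly by less than 2-fold. Of 23 markers shared by both classes of projection neuron, 19 were higher and 1 was lower (median 0.45, against -0.01 over all genes tested). Gng7, the G protein gamma subunit that couples to dopamine and adenosine receptors in the striatum, reached 0.79 ± 0.07. The phosphodiesterase Pde10a reached 0.69 ± 0.10 and the sodium channel subunit Scn4b 0.63 ± 0.07. The lower gene was Ryr1, a calcium release channel of the endoplasmic reticulum, at 80.6 to 104 CPM in 4 Inputs and 59 CPM in the fifth, and at 36.7 to 54.3 CPM in the IPs (-0.79 ± 0.15). The genes that did not pass were Arpp21 (0.07), Rgs9 (0.06) and Meis2 (-0.03).

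Direct and indirect pathway markers behaved alike in direction. Of 9 direct pathway genes 7 were higher and none lower (median 0.42), led by the opioid peptide precursor Pdyn (0.68 ± 0.09), the substance P precursor Tac1 (0.61 ± 0.06) and the muscarinic receptor Chrm4 (0.49 ± 0.06). Drd1a, the D1 dopamine receptor, stood at 410 to 479 CPM in the Input and 541 to 626 CPM in the IP (0.42 ± 0.06). Of 9 indirect pathway genes 8 were higher and none lower (median 0.36), led by Penk. The orphan receptor Gpr6 (0.57 ± 0.07), the adenosine receptor Adora2a (0.54 ± 0.08) and the kainate receptor subunit Grik3 (0.54 ± 0.06) followed, and Drd2, the D2 dopamine receptor, was at 0.35 ± 0.09, or 0.18 and not called with library size alone (adjusted p = 0.0681 by edgeR). In the list without a pathway, 17 of 18 pan-neuronal genes were higher and none lower (median 0.54), among them Syn1, the neurofilaments Nefm (0.86 ± 0.12) and Nefh (0.74 ± 0.09) and the calmodulin-binding protein Nrgn (0.68 ± 0.08).

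Interneuron markers were higher in 11 of 16 genes and lower in none, with a median of 0.58. After Nos1 came the cholinergic genes Slc18a3 (vesicular acetylcholine transporter, 0.95 ± 0.13), Chat (choline acetyltransferase, 0.81 ± 0.08) and Slc5a7 (choline transporter, 0.79 ± 0.06). Markers of neurons outside the striatum had smaller medians. Of 11 cortical excitatory markers tested of 12, 1 was higher and 2 lower (median 0.12). Lamp5, a lysosome-associated membrane protein of some cortical neurons, was higher (0.62 ± 0.07), and the transcription factors Bhlhe22 (-1.08 ± 0.25) and Fezf2 (-0.79 ± 0.22) were lower. Slc17a7, the vesicular glutamate transporter of cortex, varied from 5.52 to 21.7 CPM among Inputs and from 8.07 to 29.2 CPM among IPs and did not pass (0.63 ± 0.44). Of 8 markers of other forebrain regions 2 were higher and 3 lower (median 0.04). With library size alone, both of these medians turned negative (-0.05 and -0.13). The neuronal medians stayed positive, at 0.28 for the shared list, 0.25 and 0.19 for the direct and indirect pathway lists, 0.38 for the pan-neuronal list and 0.41 for interneurons, although the indirect pathway list then held 5 higher genes and 1 lower.

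Most genes of synaptic transmission were higher. Of 24 synaptic vesicle and release genes 22 were higher (median 0.57), including the active zone scaffold Bsn (0.82 ± 0.10). The lower genes were Rims1, an active zone scaffold (-0.66 ± 0.07), and Unc13c, a vesicle priming factor (-0.28 ± 0.09). Of 20 postsynaptic genes 16 were higher and 1 lower (median 0.43). Camk2a, the alpha subunit of calcium/calmodulin kinase II, was at 0.92 ± 0.10. Ddn (dendrin), whose RNA is known in dendrites, was the lower gene (-0.19 ± 0.06), a call that ended in the fit of all 8 hSyn groups (adjusted p = 0.0985 by edgeR) and with the replicate block (0.0517). The block joins same-numbered IP and Input libraries, which did not match in the data except for replicate 0.

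Receptor and channel genes followed. Of 31 glutamate and GABA receptor genes 22 were higher and 2 lower (median 0.37), with the NMDA receptor subunits Grin1 (0.72 ± 0.06) and Grin2b (0.69 ± 0.10) among the higher. Both lower genes, Grin2c (-0.75 ± 0.07) and Gabrg1 (-0.32 ± 0.11), are known in astrocytes as well as in some neurons. Without Input replicate 0, Gabrg1 did not pass. Of 34 voltage-gated channel genes 31 were higher and 2 lower (median 0.45), including Kcnq3 (0.80 ± 0.08), a potassium channel, and Scn2a1 (0.65 ± 0.05), a sodium channel. Hcn2, a pacemaker channel (-0.24 ± 0.05), and Cacna1d, an L-type calcium channel (-0.17 ± 0.06), were the lower genes. With no filter on low counts, or without Input 3, Input 4, IP 0 or IP 4, only 1 channel gene was lower.

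**Figure D2:**
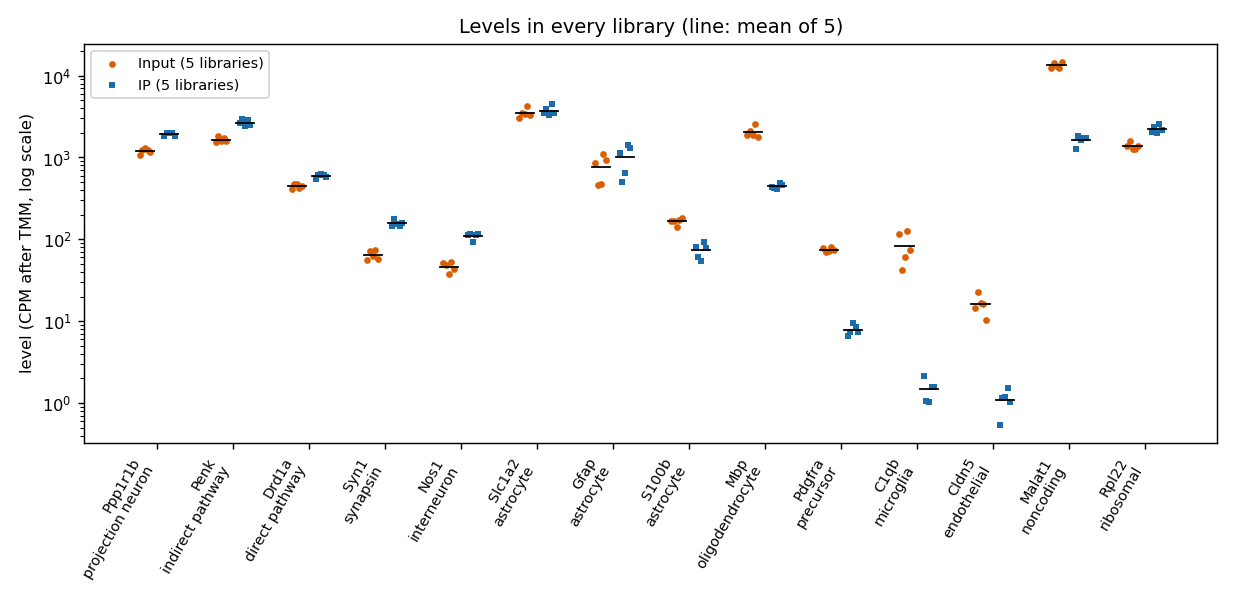
The CPM of each of the 10 libraries is drawn on a log axis for 14 genes, with circles for Inputs, squares for IPs and a line at the mean of 5. The fractions separate for every gene shown except Slc1a2 and Gfap, whose IP and Input libraries overlap.

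Most markers of microglia, vessels, fibroblasts and the oligodendrocyte lineage were lower in the IP, those of astrocytes by less. Every library is a bulk sample, in which fewer cells of a type and less RNA per cell cannot be told apart. All 16 microglia markers were more than 2-fold lower, with a median of -5.12, and their summed level was 39.1 to 54.5 CPM in the IPs and 903 to 1788 CPM in the Inputs. The complement gene C1qb stood at 116, 41.8, 61.2, 127 and 74.3 CPM in the Input and at 2.12, 1.07, 1.04, 1.58 and 1.55 CPM in the IP (-5.83 ± 0.39, a 56.7-fold difference). Inputs 0 and 4 were the highest and Input 2 the lowest, while the IPs ran from 1.04 to 2.12 CPM. Of the 10 lowest genes that the naming rule gave, C1qc (-5.99 ± 0.42), Tyrobp (-5.85 ± 0.35), C1qb, Tmem119 (-5.65 ± 0.16) and C1qa (-5.64 ± 0.36) are microglia markers, and Lyz2 (-5.97 ± 0.47), Pld4 (-5.80 ± 0.35), Cst7 (-5.66 ± 0.57) and Selplg (-5.53 ± 0.17) are also known in myeloid cells. The remaining gene, Igj, the joining chain of secreted antibodies, ran from 2.16 to 55.1 CPM among Inputs and from 0 to 0.653 CPM among IPs (-5.89 ± 0.94).

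Vascular and stromal genes came next. Of 16 endothelial and mural markers 15 were lower, 10 of them by more than 2-fold (median -2.88). Their summed level was 103 to 119 CPM in the IPs and 278 to 328 CPM in the Inputs. Cldn5, the tight junction claudin of brain endothelium, stood at 10.3 to 22.6 CPM in the Input and 0.544 to 1.52 CPM in the IP (-3.88 ± 0.27). Tagln, a smooth muscle actin-binding protein, was the exception, at 0.62 ± 0.27 without passing (adjusted p = 0.0676). Tagln stood at 7.21 to 14.8 CPM in the Input and 10.5 to 26.5 CPM in the IP. It was called higher with DESeq2 (adjusted p = 0.018), in the fit of all 8 hSyn groups (0.0244), and without Input 2 (0.0191) or IP 2 (0.0414). All 9 fibroblast and meningeal markers were lower (median -3.02), with the proteoglycan genes Lum (-5.02 ± 0.44) and Dcn (-4.90 ± 0.26) the lowest.

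Transcripts of the oligodendrocyte lineage were lower too. All 14 oligodendrocyte markers were more than 2-fold lower, with a median of -2.13 and a summed level of 1272 to 1687 CPM in the IPs against 6242 to 7881 CPM in the Inputs. Mbp, the myelin basic protein, stood at 1870, 2111, 1900, 2543 and 1776 CPM in the Input and at 440.2, 421, 416, 492 and 456 CPM in the IP (-2.20 ± 0.09, 4.58-fold). Every IP library was below every Input library, and Mobp was at -2.87 ± 0.16. All 10 markers of oligodendrocyte precursors were lower, 7 of them by more than 2-fold, with a median of -2.41. Their growth factor receptor Pdgfra fell from 69.5 to 80.9 CPM in the Inputs to 6.52 to 9.57 CPM in the IPs (-3.25 ± 0.09). Between precursors and oligodendrocytes stands Gpr17, a receptor of cells about to mature, at -3.60 ± 0.19.

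Astrocyte markers lay nearer to their tissue level than those of oligodendrocytes, precursors and microglia. Of 20 astrocyte markers 13 were lower and 1 higher, with a median of -0.40, and the summed levels overlapped, at 6495 to 9723 CPM in the IPs and 7379 to 9652 CPM in the Inputs. Slc1a2, the main astrocytic glutamate transporter, stood at 3026, 3542, 3431, 4275 and 3317 CPM in the Input and at 3479, 3889, 3303, 4486 and 3510 CPM in the IP (0.09 ± 0.10, adjusted p = 0.476). Its sign turned with library size alone, at -0.08. Gfap, the intermediate filament of astrocytes, stood at 856, 460, 479, 1094 and 933 CPM in the Input and at 1132, 507, 646, 1432 and 1319 CPM in the IP (0.40 ± 0.36). Its libraries fell into high and low ones within each fraction, and the fractions overlapped. Neither the water channel Aqp4 (-0.02 ± 0.26) nor Aldh1l1, an enzyme of folate metabolism (-0.11 ± 0.11), passed the threshold.

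Among the 13 lower astrocyte genes, the brain fatty acid-binding protein Fabp7 (-1.53 ± 0.17), the calcium-binding protein S100b (-1.17 ± 0.14) and the neurotensin receptor Ntsr2 (-0.98 ± 0.15) had the largest differences. S100b stood at 140 to 182 CPM in the Input and 54.2 to 92.4 CPM in the IP, without overlap. The higher gene, Atp1b2, a sodium pump subunit, stood at 37.8, 38, 38.1, 68 and 33.9 CPM in the Input and at 77.6, 57.2, 62.2, 94.1 and 72.6 CPM in the IP (0.75 ± 0.21, adjusted p = 0.00874). Input replicate 4 alone lay within the IP range. None of the tested markers of astrocytes, oligodendrocytes, precursors, microglia, or endothelial and mural cells was at 0 in any IP library. Lum and the erythroid gene Alas2 were at 0 in some IPs. Of 6 blood cell markers 1 passed the filter, and of 10 ependymal and choroid plexus markers 7 did, 2 of them higher and 2 lower.

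**Figure D3:**
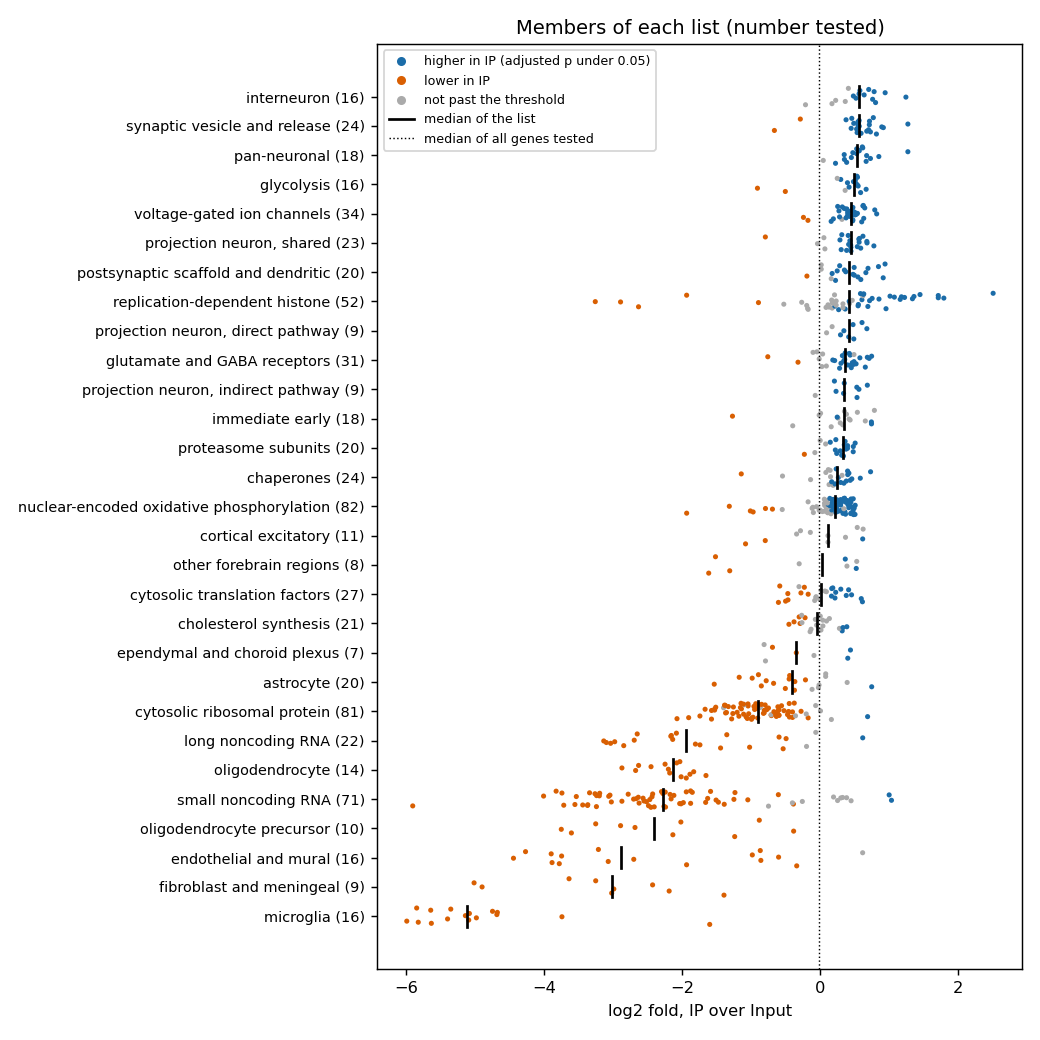
Every tested member of each list is drawn at its log2 fold of IP over Input, coloured by its call, with the list median as a black bar and the median of all genes as a dotted line. Lists of striatal neurons and synapses have medians between 0.36 and 0.58, astrocytes -0.40, oligodendrocytes -2.13 and microglia -5.12.

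Long noncoding RNA was lower in the IP. Of 22 listed transcripts 19 were lower, 12 of them by more than 2-fold, and 1 was higher (median -1.94). Malat1, an abundant RNA of nuclear speckles, stood at 12506, 14429, 12980, 12557 and 14614 CPM in the Input and at 1271, 1815, 1637, 1712 and 1750 CPM in the IP (-3.03 ± 0.10, 8.2-fold). Meg3, an imprinted noncoding RNA of neurons, stood at 703 to 985 CPM in the Input and 95 to 114 CPM in the IP (-3.10 ± 0.10), and Mirg and Miat were at -3.13 ± 0.15 and -2.98 ± 0.13. The exception was Peg13, an imprinted noncoding RNA, at 228 to 273 CPM in the Input and 363 to 411 CPM in the IP (0.62 ± 0.06). Tug1 did not pass (-0.06 ± 0.05), with 194 to 219 CPM in the Input and 194 to 214 CPM in the IP. With library size alone Tug1 was called lower (-0.23 ± 0.04, adjusted p = 0.000656 by edgeR), and 21 of the 22 transcripts were lower.

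The same held by RefSeq gene class. The classes share rows with the lists of long and small noncoding RNA, so they are not independent of them. Of 588 long noncoding RNA genes tested, 155 (26.4%) were more than 2-fold lower and none higher, with a median of -0.85. Of 14364 protein-coding genes, 1036 (7.2%) were more than 2-fold lower and 10 higher, with a median of 0.01. Among 47 microRNA host or precursor rows 29 were more than 2-fold lower (median -2.26), and among 22 small nucleolar RNA genes 18 (median -2.26). Libraries of this kind do not capture mature microRNA, and most small RNA rows were too low to test: 71 of 1246 passed the filter.

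Ribosomal protein genes were lower as a family. Of 81 tested, 71 were lower, 15 of them by more than 2-fold, and Rpl22 alone was higher (median -0.90, or -1.07 with library size alone). The summed level without Rpl22 was 2134 to 2257 CPM in the IPs and 3590 to 3886 CPM in the Inputs, without overlap. Many of these genes have near-identical processed copies, and 25 of the 81 had a mean under 5 CPM. The median was -1.17 in these 25 and -0.83 in the other 56, of which 49 were lower. Rpl13a stood at 203, 169, 159, 175 and 169 CPM in the Input and at 96.6, 87.8, 86, 85.5 and 84.3 CPM in the IP (-0.99 ± 0.06). The lowest were Rpl12 (-2.07 ± 0.23), Rpl17 (-1.90 ± 0.17), Rpl24 (-1.74 ± 0.17) and Rps12 (-1.66 ± 0.19), all under 5 CPM.

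Translation factor genes lay nearer to all genes tested, with 11 of 27 higher (40.7%, against 30.6% of all genes) and 8 lower (29.6%, against 32.6%) and a median of 0.02. Eef1a1 and Eef1a2 encode elongation factors that do the same work, Eef1a2 being the form of mature neurons and muscle. Eef1a1 stood at 1717, 1637, 1649, 1592 and 1713 CPM in the Input and at 1135, 1091, 1087, 1078 and 1090 CPM in the IP (-0.60 ± 0.04). Eef1a2 stood at 704, 768, 758, 652 and 714 CPM in the Input and at 1109, 1203, 1115, 1010 and 1087 CPM in the IP (0.62 ± 0.06). Neither gene's fractions overlapped. With Eef1a2, the start site factor Eif1 (0.60 ± 0.09), Eif3c (0.46 ± 0.04) and the scaffold Eif4g1 (0.42 ± 0.04) were the highest. With Eef1a1, Tpt1 (-0.58 ± 0.06), Eef1b2 (-0.50 ± 0.05) and Eif3f (-0.46 ± 0.06) were the lowest. With library size alone the counts of this list were 5 higher and 14 lower, and its median turned to -0.15.

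**Figure D4:**
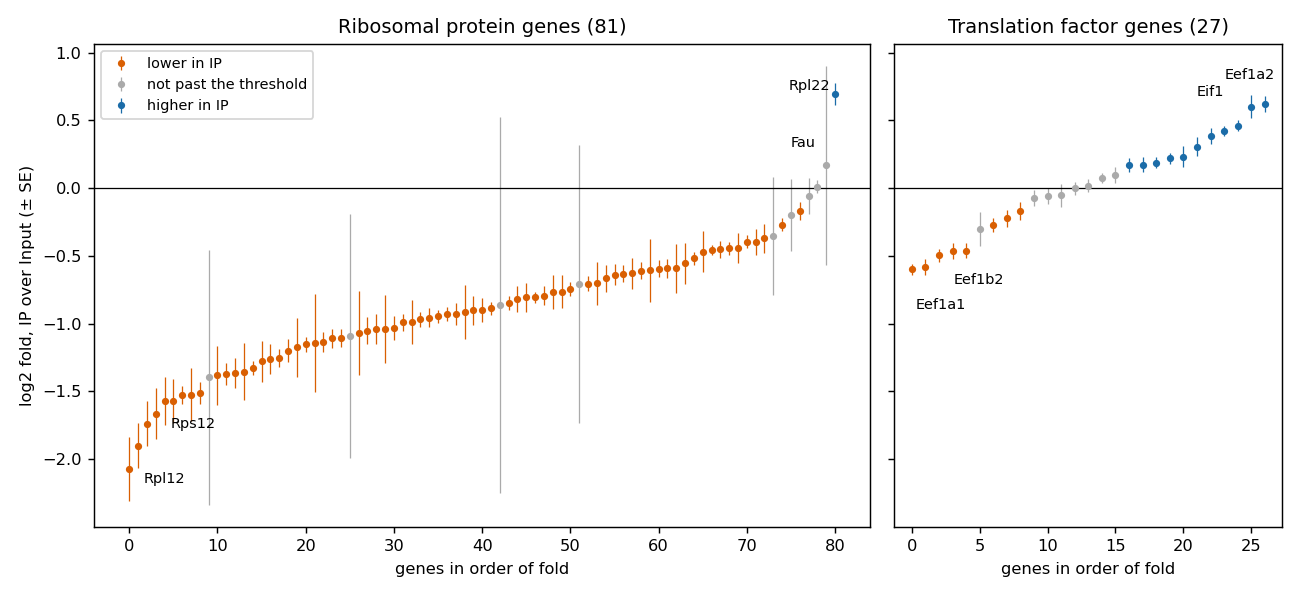
Ribosomal protein genes (left, 81) and translation factor genes (right, 27) are drawn in order of their log2 fold of IP over Input, with SE bars and colours for the calls. Of the ribosomal protein genes Rpl22 is the only one called higher, at 0.69, whereas the translation factors run from -0.60 for Eef1a1 to 0.62 for Eef1a2.

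Messages of ribosomal proteins and of several translation factors are known to begin with a run of pyrimidines, the TOP motif, which sets them apart in translational control. To show such runs, the letters CTTTC or CTTTT were sought on the transcribed strand from 10 bases before to 40 bases after each RefSeq start. They were present for 28 of 60 ribosomal protein genes with a sequence, for 3 of 21 translation factor genes and for 10.5% of the 11938 genes tested that have one. On the other strand the shares were 8 of 60 and 9.87% of all genes. Below are 30 bases around the start (5 before it and 25 from it), 5′ to 3′ on the gene's strand, from RefSeq (GRCm38.p6), with each match in capitals. They are shown for Rpl22, for the 4 lowest ribosomal protein genes and for the 4 highest and 4 lowest translation factor genes, each where a sequence was matched (Rpl17 was not). Rpl22 has 2 starts.

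Rpl12, chr2:32961707-32961736, plus strand: gatccgtCTTTTcggCTTTCggctcggagg

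Rpl24, chr16:55966270-55966299, plus strand: tgctaggaaacagactgggcgctcggaagt

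Rps12, chr10:23787185-23787214, minus strand: cggccaccgccggcCTTTTcccctgccgcc

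Rpl22, start 1, chr4:152325721-152325750, plus strand: gaaaagcaatagctggccgatcgttactta

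Rpl22, start 2, chr4:152324431-152324460, plus strand: ggaatgttccagctcccactgacagaataa

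Eef1a1, chr9:78481700-78481729, minus strand: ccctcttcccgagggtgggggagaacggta

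Tpt1, chr14:75845251-75845280, plus strand: acgacagttccgggggagccgcggacggtg

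Eef1b2, chr1:63176826-63176855, plus strand: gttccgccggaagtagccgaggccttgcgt

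Eif3f, chr7:108934410-108934439, plus strand: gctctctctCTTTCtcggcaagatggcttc

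Eef1a2, chr2:181156991-181157020, minus strand: tctgcgttctcgctcactggttctctccct

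Eif1, chr11:100319944-100319973, plus strand: cacaggggcggctatataagtgaatacagg

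Eif3c, chr7:126566342-126566371, minus strand: cagagggactcggcagcttagctggttcgt

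Eif4g1, chr16:20672722-20672751, plus strand: gctccgccctctgcgccggtcacgtggggc

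Of the 7 lower genes shown, 3 hold the letters in these 30 bases (Rpl12, Rps12 and Eif3f), and of the 5 higher genes none does. Of the ribosomal protein genes with a sequence, the 28 with a match had a median of -0.84 and the 32 without had -0.89. Apart from Rpl22, the genes shown were picked by their fold, and the search marks only the letters CTTTC and CTTTT. Runs of pyrimidines stand unmarked in the lower gene Eef1a1 (ccctcttccc) and in the higher gene Eef1a2 (ttctctccct). The counts of matches among the genes shown therefore do not tell which of them hold such runs. The search also rests on the annotated start, so a gene without a match may still carry the motif. These medians therefore do not compare genes that have the motif with genes that lack it. A match is a description of this window only.

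Metabolic and protein quality genes were mostly higher, by small amounts. Of 16 glycolysis genes 12 were higher (median 0.50), with the neuronal enolase Eno2 (0.67 ± 0.05) and aldolase Aldoa (0.59 ± 0.06) in front. The lower ones were Aldoc, the aldolase of astrocytes (-0.50 ± 0.07), and Gapdh (-0.90 ± 0.20), which stood at a mean of 3.86 CPM in the Input and has many near-identical copies. Of 82 nuclear-encoded genes of oxidative phosphorylation 55 were higher and 6 lower (median 0.22), for example the ATP synthase subunit gene Atp5b (0.51 ± 0.05), but 27 and 11 with library size alone (median 0.05). Of 20 proteasome genes 16 were higher and 1 lower (median 0.33), a count of 9 and 3 with library size alone. Of 24 chaperone genes 14 were higher and 1 lower (median 0.25), or 9 and 2 with library size alone, with Hsph1 (0.74 ± 0.18) and Hsp90ab1 (0.59 ± 0.11) the highest. Cholesterol synthesis genes went both ways, with 3 higher and 5 lower of 21 (median -0.05), or 1 and 11 with library size alone. Of 18 immediate early genes, which neuronal activity induces, 3 were higher and 1 lower (median 0.35). These were the transcription factors Egr1 (0.75 ± 0.25) and Egr3 (0.75 ± 0.18), the scaffold Homer1 (0.25 ± 0.09) and, lower, Ier2 (-1.27 ± 0.23). The calls of Egr1 and Homer1 ended with library size alone, that of Egr1 also with the replicate block (adjusted p = 0.164 by edgeR) and without Input 0, 3 or 5 or IP 1 or 3, and that of Homer1 without Input 0, 3, 4 or 5 or IP 1, 2 or 3.

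The ratio of IP to Input was next compared with that of the other neuron set, in 1 fit of 26 ND libraries and 16244 genes. The hSyn values of that fit differ a little from those above because the fits were scaled separately. In all, the ratio was higher in the hSyn set for 1154 genes (7.1%) and lower for 383 (2.36%), the latter falling to 234 without Input replicate 4 of the n_ZFP_n_Rpl set. Far above this background, the astrocyte list's ratio was higher in the hSyn set for 14 of 20 genes and lower for none, with medians of -0.35 in the hSyn set and -1.10 in the n_ZFP_n_Rpl set. Slc1a2 was at 0.14 ± 0.09 against -1.15 ± 0.10, a difference of 1.29 ± 0.13 (adjusted p = 7.8e-06). Aldh1l1 differed by 0.57 ± 0.16 (adjusted p = 0.0302), while Aqp4 (0.87 ± 0.31, adjusted p = 0.0781) and Gfap (0.32 ± 0.46) did not pass.

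Projection neuron markers had the same medians in both neuron sets, 0.50 each, and 1 of 23 differed. The difference was 0.05 ± 0.18 for Ppp1r1b and -0.02 ± 0.18 for Penk. Microglia markers had medians of -5.06 and -4.92 with 2 of 16 genes lower in the hSyn set, and no oligodendrocyte marker differed (medians -2.07 and -2.09). Other lists did differ in part. The ratio was lower in the hSyn set for 24 of 81 ribosomal protein genes (medians -0.85 and -0.49) and 30 of 83 oxidative phosphorylation genes (0.29 and 0.55), with none higher in either. It was higher for 7 of 34 channel genes (0.51 and 0.30) and 5 of 20 postsynaptic genes (0.48 and 0.29), with none lower. Rpl22 was at 0.75 ± 0.12 in the hSyn set and 1.56 ± 0.14 in the other, a difference of -0.81 ± 0.18 (adjusted p = 0.00512).

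The single genes with the largest differences again included astrocyte genes. The ratio was higher in the hSyn set for Tead1 (0.56 ± 0.18 against -1.20 ± 0.20), a Hippo pathway transcription factor, and for Kcnj10 (0.17 ± 0.21 against -1.59 ± 0.24), the inward rectifier potassium channel of astrocytes. Chrdl1, Dmpk and Atp1b2 followed. It was lower for Cd34 (-2.47 ± 0.29 against 0.03 ± 0.30), a surface protein of vessels, and for Spp1, Arhgap25, Clic5 and Abcg2, the last a transporter of brain capillaries.

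Against the labelled astrocyte set, the ratio differed widely. In the same fit it was higher in the hSyn set for 4221 genes (26%) and lower for 3439 (21.2%). All 20 astrocyte markers had a lower ratio in the hSyn set, with a median of 1.77 in the n_ZFP_a_Rpl set. The ratio of projection neuron markers was higher in the hSyn set for 21 of 23 genes (0.50 against -0.34), as it was for 27 of 34 channel genes and 16 of 20 postsynaptic genes, with 1 postsynaptic gene lower. Ppp1r1b stood at -0.01 ± 0.13 in the astrocyte set, a difference of 0.74 ± 0.18 (adjusted p = 0.00146), and Penk at 0.18 ± 0.13 (0.56 ± 0.18, adjusted p = 0.0116). Interneuron markers went the other way, with a lower ratio in the hSyn set for 8 of 16 genes and a higher one for none (0.63 against 1.33). All 14 oligodendrocyte markers had a lower ratio in the hSyn set too (-2.07 against -1.08).

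At the extremes, the ratio was higher in the hSyn set for the mural genes Vtn (-0.81 ± 0.14 against -4.03 ± 0.19) and Abcc9 (-0.28 ± 0.13 against -3.40 ± 0.17), and for Atp13a5, Krt12 and Anxa3. It was lower for Agt, the angiotensinogen gene expressed by astrocytes (-2.08 ± 0.27 against 1.78 ± 0.29), and for Igsf1, Kirrel2, Nrarp and Slc25a18. Ribosomal protein genes had medians of -0.85 and -0.90 in the hSyn and astrocyte sets, with 6 of 81 genes higher and 7 lower in the hSyn set. Of the long noncoding list, 11 of 22 genes had a higher ratio in the hSyn set and 1 a lower, at medians of -1.89 and -2.02. Malat1 differed by 0.20 ± 0.17 without passing.

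**Figure D5:**
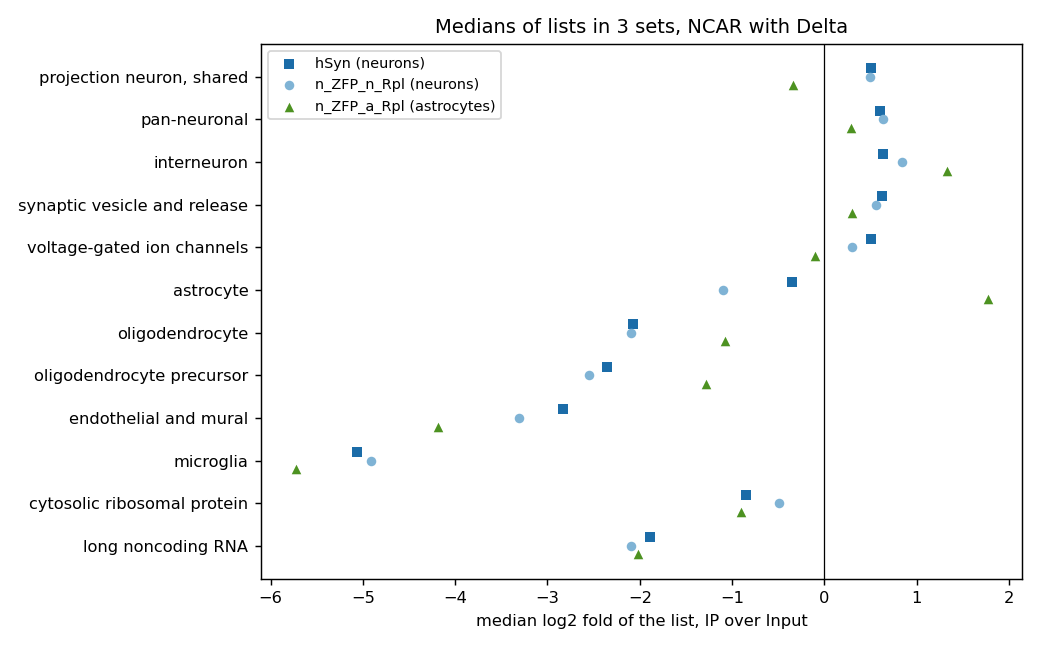
The median log2 fold of IP over Input is drawn for 12 lists in the ND libraries of the hSyn set (squares), the n_ZFP_n_Rpl set (circles) and the n_ZFP_a_Rpl set (triangles). The astrocyte list is at -0.35, -1.10 and 1.77, and the microglia list lies below -4.9 in each.

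The genes more than 2-fold apart in the ND hSyn libraries were also apart in libraries not used to find them. All 10 higher genes were called higher in NZ, RD and RZ of the hSyn set and in ND of the other neuron and the astrocyte set. The share of genes called higher there was 28.4% in NZ, 28.7% in RD, 32% in RZ, 31.3% in the n_ZFP_n_Rpl set and 31.5% in the n_ZFP_a_Rpl set. Of the 1267 lower genes, 1253 (98.9%) were called lower in NZ, 1215 (95.9%) in RD, 1230 (97.1%) in RZ, 1245 (98.3%) in the n_ZFP_n_Rpl set and 1074 (84.8%) in the n_ZFP_a_Rpl set. The shares called lower over all genes were 30.7%, 25.2%, 27.3%, 34.2% and 33.3%. In the astrocyte set 61 of the 1267 were called higher, and in the others none.

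The ratio itself was tested between conditions within the hSyn set, over 16332 genes in 1 fit of 8 groups. The comparisons share the ND libraries. With ZFP in NCAR mice (NZ less ND), the ratio was lower for 1 gene (0.00612%), the epoxygenase Cyp2j6 (-1.72 ± 0.11 against -0.72 ± 0.09), and higher for 0. By DESeq2, 2 genes were lower and 0 higher, and at an unadjusted p under 0.05 edgeR gave 165 higher and 120 lower. In R6/2 mice with Delta (RD less ND), it was higher for 142 genes (0.869%) and lower for 23 (0.141%), and in R6/2 mice with ZFP (RZ less ND) for 241 (1.48%) and 34 (0.208%). With no filter on low counts the RD counts were 35 and 35 and the RZ counts 84 and 65, so the excess of higher genes was absent for RD and smaller for RZ. With library size alone 65 and 145 genes were higher, and with the replicate block the counts were 526 and 125 for RD and 668 and 118 for RZ. With each of the 32 libraries left out in turn, the counts ran from 21 (without RD IP replicate 3) to 153 and from 5 (without RD Input replicate 2, or RD IP replicate 1) to 46 for RD, and from 80 (without ND Input replicate 4, or RZ Input replicate 2) to 263 and from 19 (without RZ IP replicate 2, or 3) to 75 for RZ. Ppp1r1b had a ratio of 0.71 in ND, 0.69 in NZ, 0.71 in RD and 0.75 in RZ, and Penk 0.71, 0.66, 0.66 and 0.69, with no difference called. Oligodendrocyte markers had a median of -2.16 in NZ, -1.46 in RD and -1.31 in RZ, with 8 of 14 higher in RZ than in ND and none in RD, and RZ was not tested against RD. Among genes with a higher ratio than in ND, Abcg2 had the largest difference in both (-0.53 ± 0.16 in RD and -0.55 ± 0.14 in RZ against -2.54 ± 0.14 in ND). The annexin Anxa3 had the largest in the other direction, and the larger of the pair (-4.29 ± 0.40 and -3.99 ± 0.34 against -1.76 ± 0.25).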

How the data were processed

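The authors deposited 1 table of read counts by gene symbol, made with STAR (mm10) and HTSeq per the submitters' processing notes. The sources used here do not give their versions or the use of strand, so overlapping and antisense genes cannot be told apart. Libraries were made with Illumina's TruSeq kit, per the labels' protocols. Of 24060 rows, 4 were dropped because their symbol came up more than once, and 0 are mitochondrially encoded. Symbols of 23919 rows matched RefSeq (GRCm38.p6), synonyms included.

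The tests used edgeR 4.0.16 under R 4.3.3. Low genes were removed with filterByExpr (counts of 10, totals of 15), and TMM set the scaling. The robust quasi-likelihood test and a test against 2-fold, both with Benjamini-Hochberg adjustment at 0.05, compared 5 IPs with 5 Inputs, unpaired. Differences from the other sets and conditions came from fits of 26 and 32 libraries. Standard errors come from the fold and its test statistic. The scripts were tested on simulated data. No library was a copy of another of its group.

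Alternatives were RLE factors, library size alone, DESeq2 1.42.0, no filter, a replicate block, the fit of all 8 hSyn groups, and each library left out. The members and lists were chosen with earlier results of these data known. Named are Ppp1r1b, Penk, Rpl22 and Htt, and the 10 highest and 10 lowest genes past the 2-fold test (mean at least 5 CPM, no overlap between fractions, no Gm, Rik, -ps or LOC symbol). Up to 4 genes per direction and list, the defining markers of other cells, and the 5 highest and 5 lowest genes per difference are named too. A few genes that did not pass, and single exceptions within a list, were named after their values were seen. Some genes that this rule gives are not reported here.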

Additional observations from a re-analysis of the deposited data

Results flagged for a closer look

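In 12 of 364 groups of 5 values tested (named genes and summed lists, by fraction), 1 library stood apart from the other 4 by Dixon's criterion, which chance meets in about 1 in 20 groups. In the Input, replicate 4 was the highest for Atp1b2 (68 CPM), Aldoc (734 CPM), Mobp (299.9 CPM) and Shank1 (31.7 CPM), and it was the lowest for the summed oxidative phosphorylation genes (7372 CPM). Also in the Input, replicate 3 was the highest for Chrm4 (121 CPM), replicate 0 for P2ry12 (99.6 CPM) and replicate 2 for Eif4g1 (328 CPM). In the IP, replicate 0 was the highest for Eef1a1 (1135 CPM) and Rpl13a (96.6 CPM), replicate 1 for Tagln (26.5 CPM) and replicate 4 for Miat (3.82 CPM).

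The ratio of IP to Input differed between groups by a test of the difference itself in the following cases. Between the hSyn and the n_ZFP_n_Rpl sets 1154 genes had a higher ratio in the hSyn set and 383 a lower. The log2 differences were 1.77 for Tead1, 1.76 for Kcnj10, 1.63 for Chrdl1, 1.61 for Dmpk and 1.58 for Atp1b2, and -2.50 for Cd34, -2.19 for Spp1, -2.03 for Arhgap25, -1.94 for Clic5 and -1.72 for Abcg2. Spp1 did not pass with the replicate block (adjusted p = 0.0696 by edgeR).

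Between the hSyn and the n_ZFP_a_Rpl sets 4221 genes had a higher ratio in the hSyn set and 3439 a lower. The differences were 3.23 for Vtn, 3.12 for Abcc9, 2.69 for Atp13a5, 1.85 for Krt12 and 1.85 for Anxa3, and -3.86 for Agt, -3.45 for Igsf1, -3.15 for Kirrel2, -3.13 for Nrarp and -3.10 for Slc25a18.

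Within the hSyn set, NZ less ND gave 1 lower gene, Cyp2j6 at -0.999. RD less ND gave 142 higher and 23 lower genes, with Abcg2 at 2.01, Igsf1 at 1.49, Trank1 at 1.25, Prrg1 at 1.24 and Evi2a at 1.22, and with Anxa3 at -2.53, Prss23 at -1.77, Pecam1 at -1.08, Chrna4 at -0.95 and Scn9a at -0.91. RZ less ND gave 241 and 34, with Abcg2 at 2.00, Igsf1 at 1.57, Olig2 at 1.40, Evi2a at 1.38 and Gjb1 at 1.36, and with Anxa3 at -2.22, Prss23 at -1.61, Hvcn1 at -1.41, Cd24a at -1.40 and Paxbp1 at -0.79. Some of these calls did not hold. For RD less ND, Igsf1 and Prss23 did not pass with RLE factors, library size alone or no filter. Neither did Pecam1 with library size alone or the replicate block, nor Hvcn1 with the block for RZ less ND. All of these, and Prss23 for RZ less ND, also did not pass without some single libraries. The call of Prrg1 for RD less ND ended without RD IP 3, and that of Igsf1 for RZ less ND without RZ Input 2.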

How the results depend on the processing

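The IP against Input counts kept their size under RLE factors, DESeq2, no filter, the replicate block and the fit of all 8 hSyn groups, within 1.5 times. With library size alone 2465 genes were higher and 5 more than 2-fold higher. Leaving out each library gave 4422 to 4589 higher and 4734 to 4963 lower, and 8 to 12 and 1169 to 1330 at more than 2-fold.

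Same-numbered IP and Input libraries (0, 2, 3 and 4) deviated from their group means with correlations of 0.74, -0.0011, -0.30 and -0.084 over 11148 genes. For 2, 3 and 4 the numbers therefore share only a name. Only replicate 0 correlated best with its own number: IPs 1, 2, 3 and 4 were most like Inputs 2, 3, 4 and 5 (0.77, 0.71, 0.62 and 0.67), a hint from the data and not the design. Because the replicate block joins same-numbered libraries, it cannot show how the results would stand with true pairs. It gave 4232 higher and 4546 lower, 1782 and 731 for the hSyn less n_ZFP_n_Rpl difference, 526 and 125 for RD less ND and 668 and 118 for RZ less ND.

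The hSyn less n_ZFP_n_Rpl lower count was 588 with library size alone and 657 with DESeq2, and with libraries left out the counts ran from 813 to 1390 and from 234 to 542. The hSyn less n_ZFP_a_Rpl counts ran from 3923 to 4278 and from 3223 to 3494. NZ less ND gave 2 lower genes with DESeq2, and 0 to 1 higher and 1 lower with libraries left out (1 higher without NZ IP replicate 5). RD less ND gave 84 higher with RLE factors, 65 higher with library size alone, 35 and 35 with no filter, and 57 lower with DESeq2. RZ less ND gave 145 higher with library size alone, 84 and 65 with no filter, and 71 lower with DESeq2.

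With libraries left out, named by condition, fraction and replicate with the count in brackets, the RD counts ran from 21 to 153 and from 5 to 46 and the RZ counts from 80 to 263 and from 19 to 75. For RD less ND, the higher count moved by over 1.5 times without ND Input 4 (24), ND Input 5 (38), NZ Input 1 (62), NZ Input 2 (38), RD Input 1 (77), RD Input 2 (42), RD Input 3 (62), RD IP 1 (55), RD IP 2 (47), RD IP 3 (21) or RZ Input 2 (35). For RD less ND, the lower count moved by over 1.5 times without ND Input 3 (14), ND IP 3 (12), NZ Input 1 (46), RD Input 1 (11), RD Input 2 (5), RD Input 3 (7) or RD IP 1 (5). For RZ less ND, the higher count moved by over 1.5 times without ND Input 4 (80), ND Input 5 (100), NZ Input 1 (133), NZ Input 2 (94), RD IP 2 (106), RD IP 3 (100), RZ Input 2 (80), RZ IP 2 (137) or RZ IP 3 (155). For RZ less ND, the lower count moved by over 1.5 times without ND Input 4 (53), ND Input 5 (62), NZ Input 1 (75), NZ Input 2 (58), RD IP 2 (69), RD IP 3 (66), RZ Input 2 (57), RZ Input 3 (20), RZ Input 4 (21), RZ IP 1 (22), RZ IP 2 (19) or RZ IP 3 (19). The cause was not tested.

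Of single genes, Arpp21, Rgs9 and Slc1a2, none of them called, turned to -0.096, -0.11 and -0.085 with library size alone. Aqp4, also not called, turned to 0.0038 with no filter, 0.0048 in the fit of all 8 groups and 0.20 with the replicate block, and ran from -0.14 to 0.14 with libraries left out (0.033, 0.049, 0.052, 0.14 and 0.080 without Inputs 0, 4 and 5 and IPs 1 and 2). Meis2 turned to 0.0040 with the block and to 0.025 and 0.019 without Inputs 2 and 3. SEs did not follow the level alone, at 0.17 for Rpl17 (a mean of 0.73 CPM in the IP) and 0.36 for Gfap (1007 CPM).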

Other observations

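Genes that no list held, with a mean of at least 50 CPM, were ranked by fold after the data were seen. Among the highest were the microtubule-binding protein Clip3 (1.11 ± 0.12), Arhgap33 (1.05 ± 0.15), the ubiquitin shuttle Ubqln2 (1.04 ± 0.10) and the histone methyltransferase Kmt2d (1.03 ± 0.17). The lowest were Bcas1 (-2.73 ± 0.14), known in myelinating cells, Tmem88b (-2.45 ± 0.08), Gatm, an enzyme of creatine synthesis (-2.36 ± 0.11), the selenium carrier Sepp1 (-2.30 ± 0.07) and the prostaglandin synthase Ptgds (-2.25 ± 0.13).

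The iron storage genes Fth1 and Ftl1 were lower, at -2.17 ± 0.07 and -1.74 ± 0.07. Fth1 had a mean of 852 CPM in the Input and 189 CPM in the IP. Clk1 and Clk4, kinases of splicing factors, were at -1.63 ± 0.14 and -1.18 ± 0.07, and Ttc14 was at -1.31 ± 0.06. These 5 were picked after their values were seen.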
